A study of Ovis aries with 18 samples.

Results

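The miR-29 family was followed in small RNA libraries from the uterus of ovariectomized ewes (Ovis aries). Its members were the rows of the deposited miRNA tables whose own name, or the name of the known miRNA listed with the same seed, carries the number 29a, 29b or 29c. The rule found 4 of 495 rows in the table for vesicles and 5 of 761 rows in the table for endometrium, and 4 of them stood in both. No row matched miR-29c. Rows that hold these digits only inside a longer number, 11 in the vesicle table and 19 in the endometrium table, were not members.

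Ewes of the P4+RU486 group received 50 mg of progesterone (P4) on each of 14 days and, from day 8 to day 14, also 50 mg of RU486 a day. Ewes of the P4 group received the progesterone alone. RU486 (mifepristone) blocks the progesterone receptor. All ewes were ovariectomized, so progesterone came from the injections, and each treatment was given to 5 ewes. Extracellular vesicles (EV), membrane particles that cells release, were isolated from a 10 ml flush of the uterine lumen that had passed a 0.22 µm filter, and gave 4 libraries per treatment. Dissected endometrium gave 5 libraries per treatment.

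The miR-29 family (miR-29a, miR-29b and miR-29c) shares one seed, the 5′ stretch by which a miRNA pairs with its target mRNAs. It is known for repressing mRNAs of the extracellular matrix, among them fibrillar collagens, elastin and fibrillin, and mRNAs of DNA methyltransferases. In fibrosis of several organs its levels are low, and transforming growth factor beta, which promotes matrix deposition, represses it.

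The vesicle table listed 2 members by a sheep miRNA name, miR-29a and miR-29b. The others, 12_6717 and 12_6721, are predicted loci listed with the seed of bovine miR-29b. They held identical values in all 8 libraries and are counted once here, which leaves 3 distinct signals. Because many miRNAs can carry one seed, this pair is called by its identifiers. The endometrium table held the same 4 rows and 20_17931, listed with the seed of mouse miR-29b-1-5p, the other arm of a miR-29b hairpin. RefSeq annotation of a different sheep assembly (ARS-UI_Ramb_v3.0) places 3 genes of the family, MIR29A on chromosome 4 and MIR29B-1 and MIR29B-2 on chromosome 12, with 1 annotated gene, CD46, between the MIR29B genes. MIR29A lies there between 2 long non-coding RNA genes. The identifiers of predicted rows begin with a number from 1 to 26, with X or with a scaffold name, and the tables do not say what the prefix means, so 12_6717 and 12_6721 were not assigned to these genes.

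Vesicle values were read as normalized CPM, reads scaled to an adjusted library size by the authors, and whole reads were recovered from them. The 8 vesicle libraries held 97202 to 1062646 reads in listed rows, and 1 read was worth 1.10 to 10.4 normalized CPM. Rows with identical values, 164 of the 495, each count in these totals. A count of 0 allows up to 3 reads, or 3.30 to 31.3 normalized CPM. The libraries are named after their columns, R01 to R04 and P01 to P04, which give no ewe number. R was read as the initial of RU486 (the P4+RU486 group) and P as that of P4. The table does not spell this out, and the direction of every vesicle difference rests on it. Of the markers of uterine epithelium, rows of miR-200a, miR-200b and miR-200c were present and summed to 10482 to 15999 normalized CPM in P4+RU486 and 7118 to 30229 in P4, while no row matched miR-141 or miR-429. Of the leukocyte list 4 of 5 names were found, and no row matched miR-223. Only miR-486 of the 3 erythroid names matched a row, and none matched the endothelial miR-126, the ciliated-cell miR-449, the smooth muscle miR-1, the stromal miR-199b or the hepatic miR-122.

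In vesicles miR-29a was the most abundant member. It stood at 608, 895, 521 and 480.2 normalized CPM in the P4+RU486 libraries R01 to R04, against 1234, 498, 898 and 878 in the P4 libraries P01 to P04. R01, R02 and R03 lay within the range of the P4 libraries, and P02 and P04 within that of the P4+RU486 libraries. The groups thus overlapped. The mean was 626 ± 187 normalized CPM (SD, n = 4) in P4+RU486 and 877 ± 301 (SD, n = 4) in P4. These levels rest on 46 to 286 reads per library in P4+RU486 and on 92 to 817 in P4.

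The pair 12_6717 and 12_6721 was the next most abundant. It stood at 56.1, 153, 23.9 and 52.2 normalized CPM in R01 to R04, against 110.0, 71.1, 111 and 105 in P01 to P04. Of the 4 P4+RU486 libraries, 3 lay below all P4 libraries and R02 lay above all of them. Its mean was 71.4 ± 56.5 normalized CPM (SD, n = 4) in P4+RU486 and 99.3 ± 18.9 (SD, n = 4) in P4. Behind these levels were 13, 49, 5 and 5 reads in R01 to R04, and 14, 38, 101 and 11 in P01 to P04.

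The row named miR-29b was near the limit of detection. It stood at 8.63, 37.6, 23.9 and 10.4 normalized CPM in R01 to R04, against 15.7, 9.36, 39.6 and 9.54 in P01 to P04. R02 and P03 were high and the ranges of the groups almost coincided. The mean was 20.1 ± 13.5 normalized CPM (SD, n = 4) in P4+RU486 and 18.5 ± 14.3 (SD, n = 4) in P4. The reads numbered 2, 12, 5 and 1 in R01 to R04 and 2, 5, 36 and 1 in P01 to P04, so 4 of the 8 libraries held no more reads than a count of 0 allows.

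**Figure D1:**
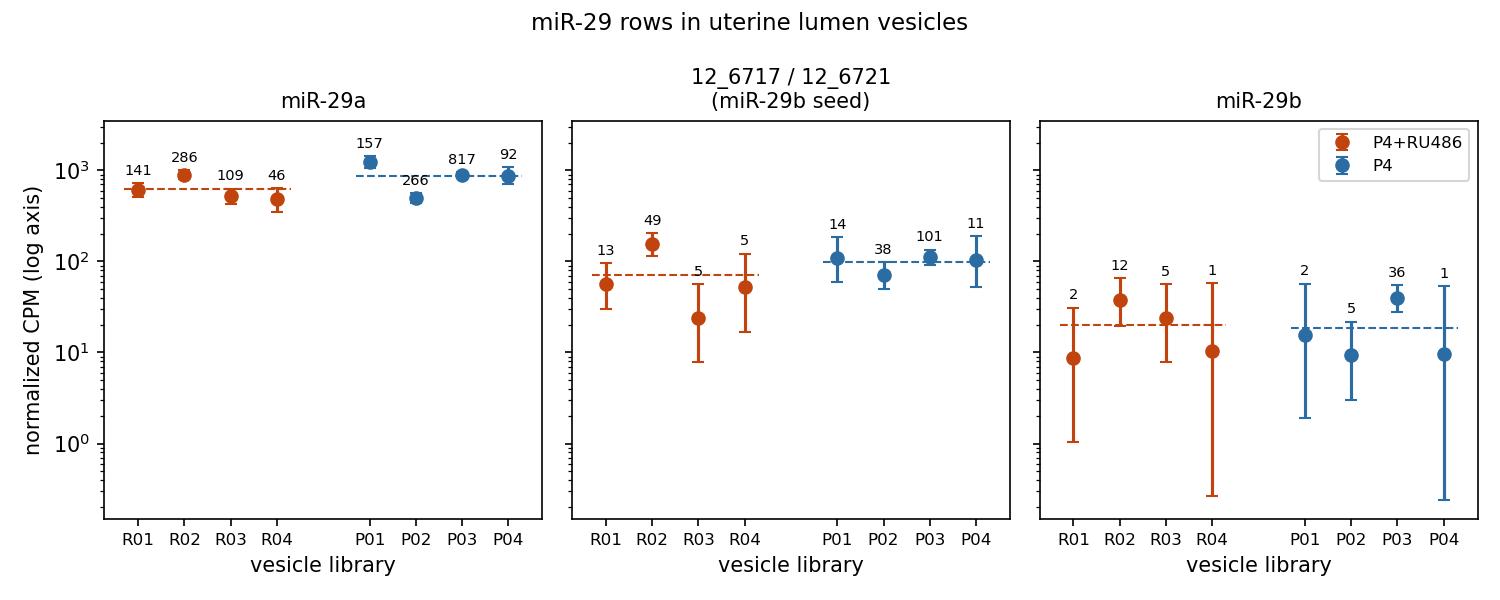
Normalized CPM (log axis) of the 3 distinct miR-29 signals in each vesicle library, P4+RU486 (R01 to R04) left of P4 (P01 to P04); bars are exact Poisson 95% intervals of counting error, numbers are reads and dashed lines are group means. The groups overlap in each panel, and the interval of miR-29b in P04, with 1 read, runs from 0.242 to 53.2 normalized CPM.

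The share of counting error in the spread differed between the signals and groups. For miR-29a the coefficient of variation between libraries was 29.9% in P4+RU486 and 34.3% in P4, where counting alone gives 9.08% and 8.06%. For 12_6717 and 12_6721 it was 79.2% in P4+RU486 and 19.1% in P4, where counting alone gives 26.0% and 23.2%. The P4 libraries of this pair varied less than counting alone gives. For miR-29b it was 66.9% in P4+RU486 and 77.2% in P4, where counting alone gives 48.3% and 44.8%. Over all 8 libraries miR-29a varied by 35.6%, below the median of 48.7% over the 219 distinct rows with a mean of at least 10 normalized CPM. Many of those rows are less abundant and carry more counting error, and miR-29a was not compared with rows of its own level. The Poisson intervals cover counting error only, since several reads can stem from 1 molecule.

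The family made up a small share of vesicle miRNA. Of the reads summed over all 495 rows, its 3 signals took 0.0697% ± 0.0245 (SD, n = 4) in P4+RU486 and 0.107% ± 0.0521 (SD, n = 4) in P4. Rows with identical values each count in that sum, while 12_6717 and 12_6721 were counted once, which understates the share. By mean level over the 8 libraries miR-29a ranked 70 of 372 distinct rows, 12_6717 and 12_6721 ranked 126 and miR-29b ranked 179. Within single libraries the rank of miR-29a ran from 68 in R02 to 81 in R03, and from 53 in P01 to 80 in P02.

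The make-up of the family varied little for its main member. Of the summed family level, miR-29a took 88.2% ± 4.07 (SD, n = 4) in P4+RU486 and 87.7% ± 2.36 (SD, n = 4) in P4. The share of 12_6717 and 12_6721 was 9.07% ± 4.08 (SD, n = 4) in P4+RU486 and 10.4% ± 1.73 (SD, n = 4) in P4, and ran from 4.20% in R03 to 14.1% in R02. The row miR-29b took 2.72% ± 1.35 (SD, n = 4) in P4+RU486 and 1.88% ± 1.29 (SD, n = 4) in P4. In every vesicle library miR-29a exceeded 12_6717 and 12_6721, by 5.84 to 21.8 times in P4+RU486 and by 7.00 to 11.2 times in P4. These ratios compare normalized CPM of mature miRNAs, which are of similar length. Whether different miRNAs enter a library equally well was not tested, so the ratios and shares describe reads.

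Across the 8 libraries miR-29a and the pair moved together more than either did with miR-29b. Pearson's r of log2(value + 1) was 0.76 between miR-29a and 12_6717 with 12_6721, 0.40 between miR-29a and miR-29b, and 0.27 between miR-29b and the pair. The points share library and depth, and these values are a description. The row miR-29b held a median of 3.5 reads, so its r values carry much counting error, and the part of this in the lower r was not tested. Among the 218 other distinct rows, the r with miR-29a had a median of -0.05 and quartiles of -0.31 and 0.34.

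The summed family level was 673, 1086, 569 and 543 normalized CPM in R01 to R04, against 1359, 578, 1048 and 992 in P01 to P04. Its mean was 718 ± 252 (SD, n = 4) in P4+RU486 and 995 ± 321 (SD, n = 4) in P4. In P4+RU486 it was high in R02 alone and in P4 low in P02 alone. On the log2 scale P4+RU486 minus P4 was -0.46, where the SD within groups was 0.49. It was -0.06 without the 3 shallowest libraries (P01, P04 and R04), -0.29 without P01 and -0.70 without P02.

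**Figure D2:**
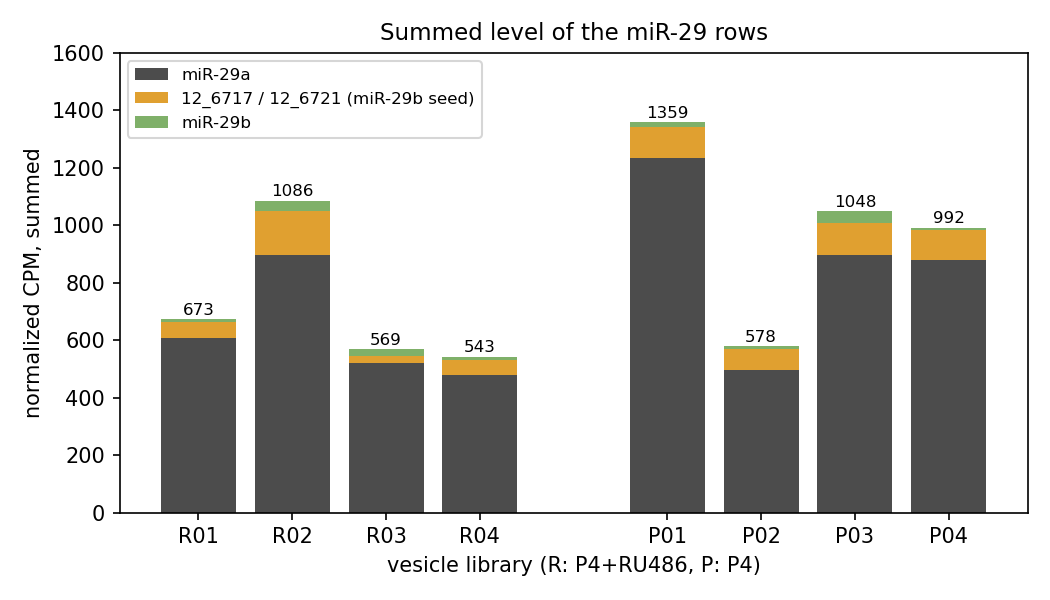
Summed normalized CPM of the 3 distinct miR-29 signals in each vesicle library, P4+RU486 (R01 to R04) left of P4 (P01 to P04), with the total above each bar and the members stacked. The totals run from 543 to 1086 in P4+RU486 and from 578 to 1359 in P4, and miR-29a makes up most of every bar.

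The comparison of treatments asked whether the family differed when RU486 was given with progesterone. None of the 3 signals passed the test (limma on log2(value + 1) over all 229 rows with a mean of at least 10, Benjamini-Hochberg adjusted p under 0.05). In that test 0.437% of all rows were called, 1 row, which was lower in P4+RU486. For miR-29a, P4+RU486 minus P4 came to -0.46 on the log2 scale (SE 0.34, 95% interval -1.19 to 0.28, limma adjusted p = 0.602). This is 1.37-fold lower in P4+RU486, and the interval runs from 0.438 to 1.21 times the P4 level. Without the 3 shallowest libraries (P01, P04 and R04) the difference of miR-29a was -0.02 (limma adjusted p = 0.983).

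For 12_6717 and 12_6721 the log2 difference was -0.76 (SE 0.53, 95% interval -1.91 to 0.39, limma adjusted p = 0.565). It was -1.22 without R02 (limma adjusted p = 0.247) and -0.35 without R03 (limma adjusted p = 0.899). The row miR-29b differed by 0.13 (SE 0.75, 95% interval -1.50 to 1.76, limma adjusted p = 0.960), and its sign turned when P02, P04, R02 or R03 was left out. No unadjusted limma p of the 3 signals was under 0.05, against 14.4% of all rows. In none did the libraries of the groups separate, against 10.0% of all rows. Each of the 3 intervals includes a level 2-fold lower in P4+RU486 as well as no difference, so the data allow either.

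The median log2 difference of the 3 signals was -0.46, where that of all 229 rows was 0.04, with quartiles of -0.37 and 0.45. That median of 3 is the estimate of miR-29a itself. The summed level is mostly miR-29a too, so its -0.46 is no separate result. Of the 3 signals, 2 had an estimate below 0, as had 48.5% of all rows. Of all rows, 19.7% had a more negative estimate than miR-29a and 13.5% a more negative one than 12_6717 and 12_6721. Scaling by library totals or by median-of-ratios factors turned no sign of the 3 estimates.

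**Figure D3:**
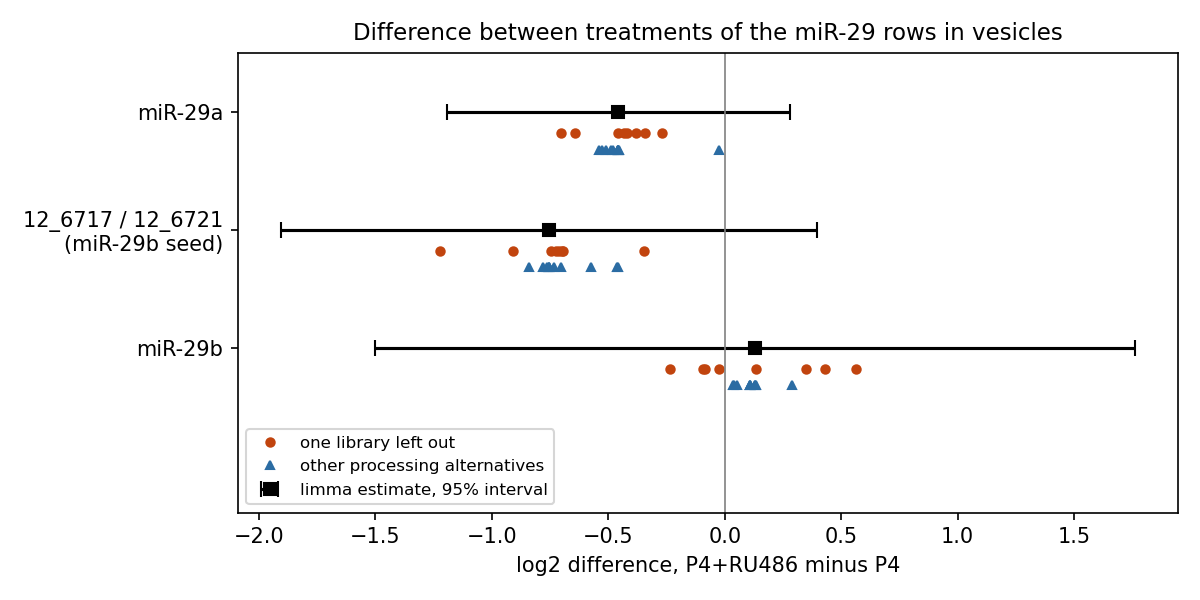
Log2 difference, P4+RU486 minus P4, of the 3 distinct miR-29 signals in vesicles: black squares with 95% intervals are the limma estimates (-0.46, -0.76 and 0.13), circles are estimates with 1 library left out and triangles are other processing alternatives. Every interval crosses 0, and the circles of miR-29b fall on both sides of it.

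The sums of the marker lists were set beside the libraries that were high in miR-29. R02, the P4+RU486 library with the most of every member, had the highest sum of its group for 4 of 7 lists. For leukocytes it held 5094 normalized CPM, against 2286 to 2756 in the other P4+RU486 libraries. Its lead was smaller for epithelium (15999, against 10482 to 14414), smooth muscle (14941, against 9740.0 to 12570.1) and ciliated epithelium (19140, against 11174 to 18364), where the 18364 was that of R04, the library with the lowest summed miR-29. P01, the P4 library with the most miR-29a, had the highest sum of all 8 libraries for leukocytes (14818, against 2512 to 5323 in the other P4 libraries). It was also highest for stroma (849, against 83.5 to 305 in the other P4 libraries) and for the liver or plasma list (440.0, against 154 to 391). Of the 440.0, 416 was 19_14926 with the miR-885 seed, which is also among the 5 rows most like miR-29a given below. For epithelium P01 had the lowest sum of all 8 libraries (7118, against 10800 to 30229 in the other P4 libraries). P03, with 898 of miR-29a and the most miR-29b of all 8 libraries (39.6), differed from P01 in these lists. It had the lowest leukocyte sum of the P4 libraries (2512). Its sums for epithelium (30229) and smooth muscle (16552) were the highest of all 8 libraries. The part of these cell types in the levels of miR-29 was not tested. None of the 7 lists held a row that passed the test. Smooth muscle had 3 tested rows with estimates below 0. Its main marker miR-143, at a mean of 12555 normalized CPM, was at -0.08 (SE 0.22). Far less abundant, 5_29566 with the miR-145 seed, at a mean of 68.2, was at -1.43 (SE 0.59, limma adjusted p = 0.317). The list's median of -1.35 was the estimate of miR-133 (SE 0.64), at a mean of 20.1. The leukocyte list had 3 of 4 estimates below 0 (median -0.30). The 1 above 0 was 11_5329 with the miR-142b seed, at 2.28 (SE 1.03, limma adjusted p = 0.334) and a mean of 37.6 normalized CPM. By mean level this list was mostly miR-150, at 4070 normalized CPM, against 37.6 to 683 in its other rows. The estimate of miR-150 was -1.11 (SE 0.55). Estimates were below 0 for 1 of 5 epithelial rows, 1 of 3 ciliated rows, the 1 stromal row and 1 of 2 liver or plasma rows, and above 0 for the 1 erythroid row. Fewer cells of a type and less RNA released per cell cannot be told apart in these libraries.

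Other miRNAs linked to matrix and fibrosis showed no called change either. Of 23 names 17 matched rows, and 20 distinct rows were tested. None passed, 13 estimates were above 0 and 7 below, and the median was 0.09, where that of all rows was 0.04. Under library totals 10 were above 0 and 10 below. The most abundant was miR-26a, at 51446 normalized CPM in P4+RU486 and 73034 in P4 (means), which is -0.50 in log2 terms (SE 0.23) with an adjusted p of 0.334 in limma. The others of the 4 most abundant, miR-30a-5p, 2_16700 with the miR-27a-3p seed, and miR-21, which is raised in many fibrotic tissues, differed by 0.13, 0.18 and 0.10 (SE 0.28, 0.25 and 0.29).

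The rows outside the family whose levels over the 8 libraries were most like those of miR-29a had r from 0.73 to 0.78. They were 1_2631 with the miR-190a seed (r = 0.78), miR-30b (0.75), 19_14926 with the seed of miR-885 (0.75), 4_28019 with the seed of miR-490 (0.73) and miR-125b (0.73). Of these 5 rows 4 were highest in P01, as miR-29a was, and miR-30b was highest in P04. The row 4_28019 had a mean of only 15.4 normalized CPM, with 86.4 in P01 and 0 in P04, R03 and R04, so its r rests on few reads. None of the 5 passed, with limma adjusted p-values from 0.109 to 0.774. All 5 estimates were below 0, as were 48.5% of those of all rows. The rows were chosen for their likeness to miR-29a over these 8 libraries, which bears on that sign, so their differences between treatments are a description. The level of 1_2631 was 25.9, 31.3, 14.3 and 31.3 normalized CPM in R01 to R04, against 118, 35.6, 57.1 and 47.7 in P01 to P04, and its groups did not overlap. Nor did those of 19_14926, at 62.6 to 94.9 in P4+RU486 and 105 to 416 in P4, where 10.0% of all rows had groups apart. For 1_2631 this rests on few reads. Its levels in R03 and R04 were no higher than a count of 0 allows there (14.3 and 31.3). With 1 read worth 10.4 normalized CPM in R04, 1 more read would put R04 above P02.

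The authors' deposited tables give a signed fold change and an adjusted p for each row, with a fold under 1 written as minus its inverse. In the authors' deposited table for vesicles a positive fold is higher in the libraries read as P4. There miR-29a had a fold of 1.40 (adjusted p = 0.92), 12_6717 and 12_6721 had a fold of 1.62 (adjusted p = 0.77) and miR-29b had a fold of -1.05 (adjusted p = 1). None of the members was called, where 1.82% of the 495 rows of that table were. Over that table the folds had a median size of 1.63, with quartiles of 1.24 and 2.69.

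In the endometrium the values per library could not be tied to treatments and were not used, so the authors' deposited table alone describes it. The numerator of its folds is not named, and the sign is given as coded. In the authors' deposited table for endometrium miR-29a had a fold of 1.06 (adjusted p = 0.985), and 12_6717 and 12_6721 a fold of 1.08 (adjusted p = 0.985). The negative folds were those of miR-29b (-1.11, adjusted p = 0.853) and of 20_17931 (-1.09, adjusted p = 0.992). None was called, where 1.18% of the 761 rows were. The sizes of these folds, 1.06 to 1.11, lay at the small end of that table, whose folds had a median size of 1.25 with quartiles of 1.09 and 1.60. For miR-29a 14.8% of the rows had a smaller fold, and for miR-29b 28.9%. A difference in response between vesicles and endometrium was not tested.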

How the data were processed

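Libraries were made with the Illumina TruSeq small RNA kit, per the labels' protocols. The submitters' processing notes name cutadapt 1.11, edgeR without a version, and the sheep build Oar_v3.1. No aligner, counting program or filter is named: not given in the sources used here. In the vesicle table the authors deposited a signal per library, CPM normalized to an effective library size, as the values show: in all 8 columns 100% were whole multiples of 1 step (tolerance 0.1 read). Each deposited table also gives the authors' signed fold (a score with values below 0) and the authors' adjusted p-value, per the file headers. The sign of the vesicle fold was that of the P4 over P4+RU486 ratio of means in 93.3% of the 387 rows with a fold size above 1.2. The 10 columns of endometrium values match no label and were not used.

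From these, limma 3.58.1 (trend, R 4.3.3) was fitted on log2(value + 1) over all rows with a mean of at least 10, the 2 vesicle groups and no covariate, with Benjamini-Hochberg adjustment at 0.05; differences are on the log2(value + 1) scale, which understates changes of low rows. edgeR 4.0.16 and DESeq2 1.42.0 were run on the recovered reads as alternatives. Poisson intervals are exact (SciPy 1.17.1, 95%). The fit was tested on simulated data with 40 changed rows. Recovery was required only of changes larger than the estimate of any member, so that run does not bear on the results of the members. All members are described; other rows are the 5 with the highest r with miR-29a and, of each fixed list, up to 4 of the most abundant. The members, lists and tests were chosen with earlier results of these data known. The labels name separate ewes, so replicates are animals. No sequence table of miRNAs was used, so sequences are not shown.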

Additional observations from a re-analysis of the deposited data

Results flagged for a closer look

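In the P4 libraries, the level of 12_6717 and 12_6721 in P02, 71.1 normalized CPM, lay far below the closely spaced other three (105 to 111), a gap of 0.848 of the group's range, where 0.829 is the limit for 4 samples. It rests on 38 reads, with a Poisson 95% interval from 50.3 to 97.6 normalized CPM, which overlaps the intervals of the other P4 libraries. This was 1 of 22 groups of values checked, and chance flags about 1 in 20.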

How the results depend on the processing

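No miR-29 signal passed the threshold under any alternative run: pseudocounts of 0.5 and 5, no filter or a mean of at least 50 (which leaves out miR-29b), library totals, median-of-ratios factors, edgeR, DESeq2 (no adjusted p for miR-29b), library total as a covariate, identical rows merged, 1 library left out, and without the 3 shallowest libraries. The log2 difference of miR-29a ranged from -0.54 (library totals) to -0.02 (without the 3 shallowest libraries), and from -0.70 to -0.27 with 1 library left out. That of 12_6717 and 12_6721 ranged from -0.84 to -0.46, and from -1.22 to -0.35 with 1 library left out. For miR-29b it ranged from 0.03 to 0.29, and with 1 library left out from -0.24 to 0.56, reversed without P02 (-0.09), P04 (-0.09), R02 (-0.24) or R03 (-0.03). The cause was not tested. The summed level kept its sign, from -0.55 to -0.06, and from -0.70 to -0.29 with 1 library left out. It was -0.44 over rows with their own sheep name. Of all rows, 1 was called in the test reported, 5 with DESeq2, 6 with library total as a covariate, and 0 to 2 with 1 library left out (0 without P04, R01, R03 or R04, with 20 to 30 rows at an unadjusted limma p under 0.05). Depth limits miR-29b most, at a median of 3.5 reads. The endometrium alternatives were not run, as its columns could not be tied to treatments. No paired analysis was possible because the vesicle columns carry no ewe or replicate number of the labels.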
